A study of Homo sapiens with 95 samples.

Results

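The genes described here are zinc finger genes named ZNF and a number, in AALE cells, which are bronchial epithelial cells of human origin made immortal. They were chosen by their mean raw count over the 95 samples, at least 20 for a symbol of that form, which gave 191 of 478 such symbols. ZNF347, whose mean was 17.0 counts, was added because earlier results of these data had shown its loss in FAT1 knockout cells. The 192 members are among 27978 genes listed, and 3 of the 478 symbols had no read in any sample. Just outside the limit lay ZNF813, ZNF888 and ZNF707, with means of 19.91, 19.96 and 19.97 counts, and just inside it ZNF44, ZNF789 and ZNF213, with 20, 20.07 and 20.19.

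Sparse full length (SFL) sequencing, a pooled and ribosomal RNA-depleted RNA-seq method, was applied to 8 genotypic perturbations under 4 treatments. FAT1 and CDKN2A were CRISPR knockouts, and their control, GFP, was made of AALE cells transfected with a Cas9-EGFP plasmid without a guide. NRF2 (NFE2L2), FGFR1, NRG1 and PIK3CA were overexpressed, with the HCRED reporter vector as control. Cells received DMSO or 1 of 3 carcinogens, with 3 samples per combination and 2 for FGFR1 with CSC. CSC, a condensate of cigarette smoke, was used at 24 μg/ml, the polycyclic hydrocarbon benzo(a)pyrene (BaP) at 173 μM and NNK, a nitrosamine of tobacco, at 490 μM. Each perturbation is 1 line in these data, so what the perturbation did and what that line of cells was like cannot be told apart. The study describes the replicates as biological, and the labels do not say whether they were separate cultures, so p-values measure the spread between these samples.

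The libraries held 287446 to 2116383 counted reads, and 3 counts corresponded to 1.42 to 10.4 CPM (counts scaled to a library of 1e6, TMM-normalized). In each overexpressing line the overexpressed gene was above all samples of other lines, and FAT1 was lower in the FAT1 line (66.5 to 129 CPM) than in every other sample (260 CPM or more). CDKN2A in the CDKN2A line (35.1 to 66.8 CPM) lay below all GFP samples (79.1 to 147 CPM). The airway basal markers KRT5, KRT14, KRT17, TP63, EPCAM, CDH1 and ITGA6 were read in all samples, with a summed level of 3500 to 11300 CPM. The 10 markers of blood, endothelial, mesenchymal, alveolar, club, ciliated and neuroendocrine cells summed to between 0 and 9.12 CPM, and CD3E was at 0 throughout. In bulk samples fewer cells expressing a gene and less RNA per cell cannot be told apart.

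ZNF proteins bind DNA through tandem C2H2 fingers, each holding a zinc ion. The largest group carries a KRAB domain at its N terminus, which recruits TRIM28 and, through it, the histone methyltransferase SETDB1, HP1 proteins and deacetylases. These complexes lay down H3K9me3 and are best known for silencing transposable elements and for keeping imprinted marks. KRAB-ZNF genes arose by repeated tandem duplication and lie in clusters, most of them on chromosome 19, where they are themselves covered by H3K9me3. Members without KRAB include ordinary activators and repressors, and RNA-binding proteins.

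Of the 192 members, 112 had a KRAB-like pattern in a coding isoform of the GENCODE annotation and 80 had none. Chromosome 19 held 81 members (42.2%), of which 70 had the KRAB pattern. The median member had 10 fingers, and its exons had a GC content of 43.8%, against 47.5% for all genes with a mean count above 1. Per kilobase of exon the members had a median level of 6.32 CPM per kb, against 11.8 over 8013 genes with at least 20 counts. ZNF146, a protein made almost only of fingers, ZNF770 and ZNF664 were highest per kb (36.6, 33.1 and 32.9 CPM per kb), and ZNF347 (1.96) stood second to last, above ZNF827 (1.23). ZNF genes are close paralogs, and short reads that fit several of them could be lost or misplaced, so levels of recent duplicates are uncertain.

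ZNF347 lies at chr19:53627325-53662328 (hg19, minus strand) and encodes 840 residues with 17 fingers and a KRAB pattern. The sequences below are the 250 bases before the RefSeq start of ZNF347 and of 5 other genes with low levels in FAT1 cells, each 5′ to 3′ on the gene's strand. They come from RefSeq on GRCh38.p14, at chr19:53159054-53159303 (ZNF347, minus), chr19:52897695-52897944 (ZNF320, minus), chr19:20166964-20167213 (ZNF486, plus), chr19:20077750-20077999 (ZNF90, plus), chr19:21836183-21836432 (ZNF43, minus) and chr7:64313711-64313960 (ZNF736, plus). They are shown so that the promoter of ZNF347 can be set beside those of genes low in the same cells, some of which are near copies of each other. Capitals mark CCAATCA or its reverse complement TGATTGG, a form of the CCAAT box.
ZNF347: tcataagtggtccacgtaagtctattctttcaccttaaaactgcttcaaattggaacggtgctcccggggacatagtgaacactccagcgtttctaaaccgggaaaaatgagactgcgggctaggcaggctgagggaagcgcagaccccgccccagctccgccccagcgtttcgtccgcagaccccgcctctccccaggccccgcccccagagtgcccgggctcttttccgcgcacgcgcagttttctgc
ZNF320: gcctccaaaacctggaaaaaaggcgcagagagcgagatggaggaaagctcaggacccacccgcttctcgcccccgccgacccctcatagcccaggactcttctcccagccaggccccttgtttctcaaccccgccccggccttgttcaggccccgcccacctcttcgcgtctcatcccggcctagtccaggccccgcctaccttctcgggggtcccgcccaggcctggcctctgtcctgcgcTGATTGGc
ZNF486: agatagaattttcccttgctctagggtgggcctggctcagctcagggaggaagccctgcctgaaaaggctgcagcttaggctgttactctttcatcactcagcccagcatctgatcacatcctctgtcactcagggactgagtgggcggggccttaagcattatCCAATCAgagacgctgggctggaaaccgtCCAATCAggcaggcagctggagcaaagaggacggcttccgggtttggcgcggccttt
ZNF90: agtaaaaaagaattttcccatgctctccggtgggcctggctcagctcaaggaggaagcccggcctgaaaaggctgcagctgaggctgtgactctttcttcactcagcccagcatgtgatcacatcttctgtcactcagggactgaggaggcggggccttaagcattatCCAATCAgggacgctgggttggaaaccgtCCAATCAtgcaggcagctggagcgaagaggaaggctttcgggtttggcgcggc
ZNF43: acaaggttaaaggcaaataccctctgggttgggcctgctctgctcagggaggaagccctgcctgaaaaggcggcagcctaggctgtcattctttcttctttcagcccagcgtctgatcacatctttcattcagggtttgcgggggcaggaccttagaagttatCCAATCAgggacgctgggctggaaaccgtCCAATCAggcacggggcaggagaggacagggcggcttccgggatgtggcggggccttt
ZNF736: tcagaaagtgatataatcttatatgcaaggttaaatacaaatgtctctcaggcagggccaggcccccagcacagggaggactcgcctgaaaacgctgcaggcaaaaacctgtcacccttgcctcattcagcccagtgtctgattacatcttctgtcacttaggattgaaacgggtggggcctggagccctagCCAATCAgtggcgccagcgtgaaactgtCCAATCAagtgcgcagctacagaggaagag
In a global alignment, 90.8% of the 250 bases were identical between ZNF486 and ZNF90 and 81.6% between ZNF486 and ZNF43. ZNF736 on chromosome 7 shared 67.6% with ZNF486, and ZNF347 shared 55.6 to 59.2% with the others, against a median of 58.4% over 13861 pairs of the 167 members with a promoter in RefSeq. The motif was absent before ZNF347, present once before ZNF320 and present 2 times before each of the other 4. CCAATCA on either strand occurred in 21% of the 167 member promoters, in 30.3% of 99 with the KRAB pattern and 7.35% of 68 without. It occurred in 9.11% of 6631 promoters of genes with at least 20 counts and in 6.90% of all 27305 promoters of this length. All 13 members of the pericentromeric chromosome 19 cluster that RefSeq covers had it, and 8 of the 13 had it at least 2 times. The motif was picked after reading these sequences, and a match is not a binding site.

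ZNF347 was near silent in FAT1 cells under every treatment. This loss is the reason it was chosen, so its values there are a description and were not tested. The counts in the 12 FAT1 samples were 0, 1 and 0 with DMSO, 0, 0 and 0 with CSC, 1, 0 and 0 with BaP, and 0, 3 and 0 with NNK. These are 5 reads of 10563059, or 0.473 CPM without TMM scaling (exact Poisson 95% interval 0.154 to 1.10, counting error only). The 12 GFP samples held 342 reads of 10673852, or 32.0 CPM, so that FAT1 cells had 1.48% of the GFP level. No other line had a sample without a ZNF347 read.

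With DMSO the mean level of ZNF347 was 38.0 ± 2.16 CPM (SD, n = 3) in GFP, 28.7 ± 2.39 in NRF2, 26.1 ± 2.58 in PIK3CA and 21.5 ± 3.44 in FGFR1. It was 18.2 ± 4.65 in HCRED, 12.5 ± 2.30 in CDKN2A, 8.06 ± 1.07 in NRG1 and 0.296 ± 0.512 in FAT1. The GFP samples lay above and the FAT1 samples below those of all other lines, and NRG1 did not overlap CDKN2A, its neighbour in this order. Samples of neighbouring lines overlapped from NRF2 down to CDKN2A. ZNF347 was higher in GFP than in HCRED by a log2 fold change of 1.13 ± 0.25 (SE). All 3 GFP samples (35.5 to 39.6 CPM) lay above the HCRED samples (13.8, 17.7 and 23 CPM). In CDKN2A cells it was lower than in GFP by 1.62 ± 0.27 on the log2 scale, where the samples read 9.92, 13.2 and 14.4 CPM. GFP is the control of FAT1, so its samples may have taken part in the choice of ZNF347. Both differences are therefore a description, with no test. In NRG1 cells the difference of ZNF347 from HCRED was -1.08 ± 0.37 with DMSO (limma-voom, adjusted p = 0.103). It was -1.09 ± 0.24 over the 9 carcinogen-treated samples of each line (adjusted p = 0.00143). Over carcinogen-treated samples it was also higher than in HCRED in PIK3CA (0.55 ± 0.17, adjusted p = 0.0104) and in NRF2 (0.47 ± 0.17, adjusted p = 0.0469), where with DMSO it did not pass (0.59 ± 0.26, adjusted p = 0.167, and 0.72 ± 0.27, adjusted p = 0.0864). No carcinogen passed against DMSO over all genotypes, with log2 differences of -0.07 ± 0.10 for CSC (adjusted p = 0.583), -0.16 ± 0.10 for BaP (0.208) and -0.09 ± 0.11 for NNK (0.484).

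**Figure D1:**
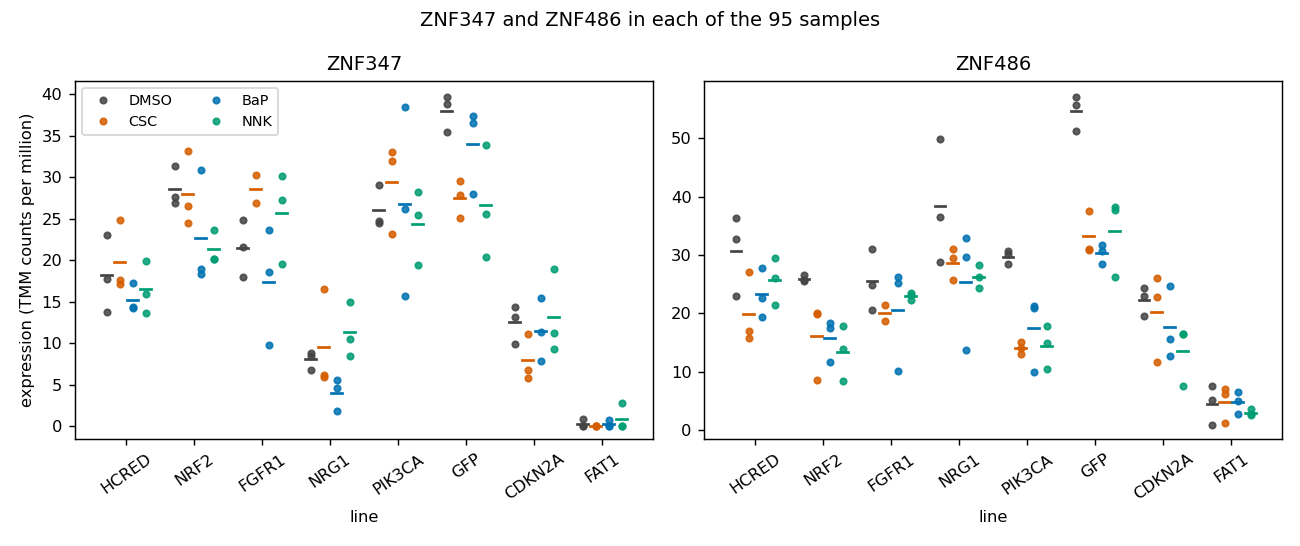
TMM-normalized CPM of ZNF347 and ZNF486 in each of the 95 samples (points, coloured by treatment) with the mean of each combination (short bars), by line. FAT1 samples lie at or near the bottom for both genes, at 0 to 2.83 CPM for ZNF347 and 0.888 to 7.62 CPM for ZNF486, and GFP samples are high. Over all treatments the FAT1 range overlaps the lowest NRG1 sample for ZNF347 (1.86 CPM) and the lowest CDKN2A sample for ZNF486 (7.57 CPM).

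By the rule used, a mean with DMSO below 10% of the median of the other 7 lines with each of those at 25% or more of it, ZNF347 in FAT1 was the only near silent member of the 192. Its mean was 1.38% of the median of the other lines. No member was high in 1 line only, at 4 times the median of the other lines or more. At a limit of 20%, ZNF486 in FAT1 joined it, at 15.3% of the median. ZNF486 is a KRAB-ZNF gene with 9 fingers at chr19:20278023-20311297 (hg19), near the count limit (mean 20.7 counts). With DMSO it read 0.888, 5.12 and 7.62 CPM in FAT1, against 51.2, 55.7 and 57.0 in GFP and 23, 32.7 and 36.4 in HCRED. The FAT1 samples lay below all other DMSO samples. In carcinogen-treated samples the log2 difference between FAT1 and GFP was -2.96 ± 0.27. ZNF486 reaches the count limit only with the GFP samples, and also only with the NRG1 samples, so its differences from GFP are a description, with no test.

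Below the count limit, FAT1 cells had lost more genes of the chromosome 19 cluster that holds ZNF486, which is not that of ZNF347. At a mean of at least 10 counts (311 genes), ZNF43 (chr19:21987752-22034927) and ZNF90 (chr19:20188803-20237885) also met the rule in FAT1. ZNF90 had 1 read over the 12 FAT1 samples and 130 over the 12 GFP samples, and ZNF43 had 8 and 252. CDKN2A had the next lowest means with DMSO, 9.39 CPM for ZNF43 and 7.1 CPM for ZNF90. The remaining lines had means of 16.9 to 31.1 CPM and 12.8 to 20.9 CPM. In carcinogen-treated samples the log2 differences from GFP were -4.08 ± 0.41 for ZNF90 and -4.20 ± 0.38 for ZNF43, given as a description. At a mean of at least 5 counts (389 genes), ZNF93 (chr19:20011722-20074273) and ZNF682 (chr19:20107867-20150314) joined, with 5 and 13 reads in FAT1 against 139 and 191 in GFP. ZNF93 is known for silencing L1 elements. The one near silent gene outside FAT1 at that limit was ZNF597 in GFP (chr16:3482414-3493504), an imprinted gene, with 8 reads over the GFP samples and 60 over the FAT1 samples. These genes were looked for after the pattern was seen.

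ZNF347 sits among other ZNF genes, and most of them were lower in FAT1 than in GFP without being lost. Within 500 kb, 18 other ZNF symbols were listed, of which 15 were lower in FAT1 (limma-voom, adjusted p under 0.05), 0 were higher and 3 did not pass (ZNF600, ZNF845 and ZNF761). Of the 10 members among them, 9 were lower. Over all genes 26.3% passed in this comparison, 14.3% as lower. The nearest listed genes were ZNF665, 137 bases to the right (0.0 ± 0.0 CPM in FAT1, 4.82 ± 0.943 in GFP), and ZNF160, 20637 bases to the left (24.6 ± 4.15 and 55.4 ± 2.12). ZNF415 overlaps ZNF347 on the same strand and read 0.254 ± 0.440 in FAT1 and 7.91 ± 3.56 in GFP, but 0.656 ± 1.14 in HCRED, so that it was low in HCRED as well. For several of the neighbours HCRED lay close to FAT1, as for ZNF28 (47.9 ± 6.96 CPM in FAT1, 97.9 ± 14.7 in GFP, 53.7 ± 12.2 in HCRED) and ZNF468 (35.5 ± 5.05, 69.9 ± 9.04 and 34.2 ± 8.90). Of these neighbours, ZNF468 alone had a mean in FAT1 that was not below those of both control lines. HCRED lay further above FAT1 for ZNF83 (23.4 ± 3.11, 57.2 ± 2.25 and 46.6 ± 4.06) and ZNF160 (46.5 ± 0.956 in HCRED). The same held for ZNF320 (11.2 ± 2.9, 41.1 ± 3.77 and 21.2 ± 8.88) and ZNF813 (9.87 ± 4.18, 42.0 ± 2.95 and 24.1 ± 0.436). FAT1 was not tested against HCRED. ZNF28 overlaps ZNF468, and ZNF525 overlaps ZNF765, so their values are uncertain.

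The genes whose line means with DMSO were most like those of ZNF347 (Pearson r on log2 CPM over 8 lines, a description among 8270 genes with at least 20 counts) were ZNF544 (0.966), ADGRA3 (0.966), PSMD7 (0.955), ZNF83 (0.954) and ZNF814 (0.954). None of them was near silent in FAT1. ZNF544 read 57.6 CPM in FAT1 and 73.9 to 99.6 CPM in the other lines, and ADGRA3, an adhesion receptor on chromosome 4, read 26.6 and 55.1 to 128 CPM.

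Across the 8 lines, the line that stood out for these genes was GFP, a control. GFP had the highest mean with DMSO for 88 of 192 members (45.8%), against 17.3% of 8270 genes, and the lowest for 16 (8.33%, against 17.5%). Among the 88 was ZNF347, chosen for its loss in FAT1. ZNF44, ZNF486, ZNF548 and ZNF66 were among them too, and these reach the count limit only with the GFP samples. FAT1 had the lowest mean for 41 members (21.4%, against 17.3% of all genes) and CDKN2A for 47 (24.5%, against 24.8%). Relative to the median line, the median member was 0.20 higher in GFP on the log2 scale, and between -0.05 and 0.01 in the other 7 lines. All 3 GFP samples lay above the other 21 DMSO samples for 31 members (16.1%, against 4.37% of all genes), ZNF347, ZNF44 and ZNF486 among them. In FAT1, 8 members were separated downwards (4.17%, against 3.85%) and 6 upwards (3.12%, against 4.23%), shares near those of all genes. The 8 were ZNF165, ZNF331, ZNF347, ZNF440, ZNF486, ZNF525, ZNF721 and ZNF83. The members took 1.08 to 1.32% of all counts in GFP (median 1.19%), and medians were between 0.989% in PIK3CA and 1.07% in FAT1 elsewhere.

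**Figure D2:**
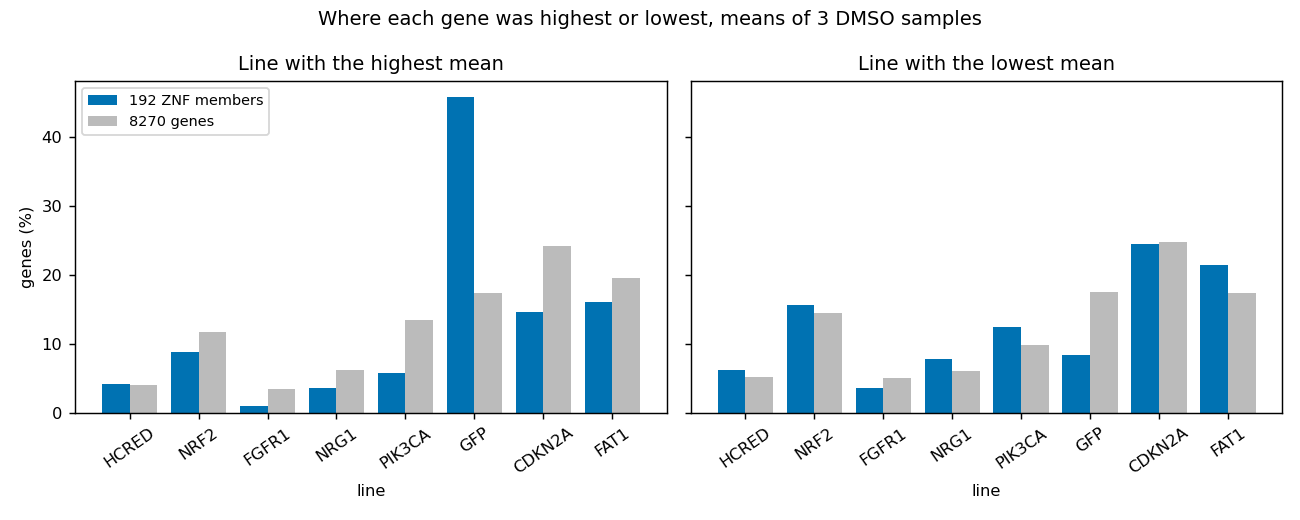
Share of the 192 members (blue) and of 8270 genes with a mean of at least 20 counts (grey) whose mean of 3 DMSO samples was highest (left) or lowest (right) in each line, in percent. GFP was the highest line for 45.8% of members and 17.3% of all genes.

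Most members varied modestly between lines. The highest line mean was 1.77 times the lowest for the median member, against 1.69 over all genes, and it was at least 4 times for 4 of the 191 members other than ZNF347 (2.09%, against 2.45%). These were ZNF486 (12 times), ZNF736 (5.64), ZNF334 (5.43) and ZNF483 (4.17). ZNF483 was highest in FAT1, at 229 CPM against a median of 80.6 in the other lines.

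The GFP line was compared with HCRED to see how the controls differ. In GFP, 49 members were higher and 8 lower (29.7% called, against a background of 17.7%, 8.76% higher and 8.95% lower), and the median member differed by 0.21 on the log2 scale against 0.00 for all genes. Of 112 KRAB members 39 were higher and 2 lower, with a median of 0.34. Of 80 without KRAB 10 were higher and 6 lower, with a median of 0.04. On chromosome 19, 31 of 81 members were higher and 0 lower. ZNF347 and the members that reach the count limit only with the GFP samples, named below, were kept in these counts and splits. ZNF417 read 48.8, 56.1 and 56.7 CPM in GFP and 21.5, 25.6 and 28.8 in HCRED, and rose by 1.10 ± 0.21 (adjusted p = 4.57e-05). ZNF737, a KRAB gene of the pericentromeric cluster, read 55, 61.5 and 71.5 CPM in GFP and 27.4, 30.5 and 31.9 in HCRED (1.02 ± 0.20, adjusted p = 5.21e-05). ZNF468 rose by 1.01 ± 0.19 (adjusted p = 2.7e-05). In each of these the groups did not overlap. The largest fall was that of ZNF334, at 7.68, 9.67 and 12.4 CPM in GFP and 31.0, 38.9 and 47.2 in HCRED (-1.89 ± 0.30, adjusted p = 8.2e-07). ZNF629 (-0.85 ± 0.19), ZNF646 (-0.84 ± 0.23) and ZNF768 (-0.81 ± 0.26), all on chromosome 16 and without the KRAB pattern, also fell, with adjusted p of 0.000632, 0.00569 and 0.0208. Leaving out GFP replicate 1 took ZNF646 to an adjusted p of 0.0586, and leaving out GFP replicate 2 or 3 or HCRED replicate 1 or 2 took ZNF768 to between 0.0547 and 0.129. In carcinogen-treated samples of the same lines 54 of the 57 called members were called in the same direction, and 0 in the opposite one.

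Against this control, both knockouts had lower KRAB-ZNF levels. FAT1 and CDKN2A share the GFP samples, so from these comparisons alone a low knockout and a high control cannot be told apart, and HCRED values are given beside. Relative to the median line, the median member was at -0.02 in FAT1, -0.01 in CDKN2A and 0.20 in GFP on the log2 scale. In FAT1, 15 members were higher and 77 lower of 191, ZNF347 left out (48.2% called, background 26.3%, 12% higher and 14.3% lower), and the median member differed by -0.24 against 0.01 for all genes. In CDKN2A, 21 of 192, ZNF347 included, were higher and 73 lower (49.0% called, background 37.2%, 18.9% higher and 18.3% lower), with a median of -0.27 against 0.02. KRAB members made up 56 of the falls in FAT1 (7 rose, of 111) and 56 in CDKN2A (6 rose, of 112). ZNF44, ZNF486, ZNF548, ZNF66 and ZNF789 have a mean under 20 counts without the GFP samples. Without these 5 members, 15 were higher and 73 lower in FAT1, 21 and 69 in CDKN2A, and 46 and 8 in GFP against HCRED. Members without KRAB had medians of 0.05 in FAT1 and -0.06 in CDKN2A. Of the called members, 78 of 92 in FAT1 and 85 of 94 in CDKN2A were called in the same direction in carcinogen-treated samples, and 0 in the opposite one.

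The named falls in FAT1 were all of KRAB genes. ZNF736 on chromosome 7 read 13.7, 15.4 and 16.9 CPM in FAT1, 67.2, 72.1 and 84.1 in GFP and 28.8, 39.6 and 53.1 in HCRED, and fell by 2.28 ± 0.23 against GFP (adjusted p = 2.12e-10). ZNF320, in the neighbourhood of ZNF347, fell by 1.86 ± 0.27 (adjusted p = 1.05e-06), at 9.22, 9.76 and 14.5 CPM against 38.4, 39.5 and 45.4 in GFP and 15.8, 16.4 and 31.5 in HCRED. ZNF737 fell by 1.74 ± 0.22 (adjusted p = 6.85e-08) and the difference of ZNF486, described above, was -3.8 ± 0.45. For these genes no FAT1 sample reached a GFP or HCRED sample with DMSO, but the ZNF320 samples of NRF2 (10.2, 13.5 and 15.1 CPM) overlapped those of FAT1. The largest rises were those of ZNF646 (1.02 ± 0.22, adjusted p = 0.000423), ZNF768 (0.94 ± 0.24, 0.00298), ZNF267 (0.82 ± 0.24, 0.00823) and ZNF623 (0.66 ± 0.18, 0.00558). Without FAT1 replicate 2, ZNF267 no longer passed (0.58, adjusted p = 0.0893). ZNF646 read 42.7, 44.1 and 54.1 CPM in FAT1, 16.4, 23 and 27.9 in GFP and 35.3, 39.3 and 51.8 in HCRED, so that FAT1 and HCRED overlapped and GFP was low. For each of these rises GFP had the lowest mean of all lines with DMSO. The highest mean was in NRF2 for ZNF646 and ZNF623, and in NRG1 for ZNF768 and ZNF267.

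In CDKN2A cells ZNF736 again fell most, to 10.3, 14.4 and 15 CPM (-2.47 ± 0.25, adjusted p = 2.18e-13). ZNF680, a KRAB gene also on chromosome 7, read 16.2, 19.5 and 22.9 CPM against 63.8, 68.2 and 76.8 in GFP and 40.3, 49.1 and 50.2 in HCRED (-1.85 ± 0.21, adjusted p = 3.58e-11). ZNF66, which reaches the count limit only with the GFP samples, and also only with those of PIK3CA, differed from GFP by -1.75 ± 0.31, a description with no test. ZNF367, a short protein with 2 fingers and no KRAB pattern, fell by 1.67 ± 0.14 (adjusted p = 2.47e-16), at 44, 46.9 and 48.2 CPM against 138, 142 and 157 in GFP and 70.5, 71.8 and 83.5 in HCRED. ZNF704 came nearest to marking the CDKN2A line from above. It read 81.2, 87.1 and 93.3 CPM there, 30.0, 31.8 and 33.6 in GFP and 27.5, 28.4 and 46.1 in HCRED (1.42 ± 0.17, adjusted p = 1.6e-10). Over all treatments its CDKN2A samples (54.9 to 93.9 CPM) lay above all samples of the other lines, the highest of which was 46.1 CPM. ZNF334 (1.40 ± 0.30, adjusted p = 0.000105), ZNF358 (1.35 ± 0.29, 0.000105) and ZNF839 (1.32 ± 0.24, 7.68e-06) also rose. For ZNF358 and ZNF839 the highest mean of all lines with DMSO was in CDKN2A and the lowest in GFP. ZNF334 read 24.4, 26.7 and 31.7 CPM in CDKN2A and 7.10, 8.39 and 9.22 in FAT1, so it was low in GFP and FAT1 and not in the other 6 lines.

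**Figure D3:**
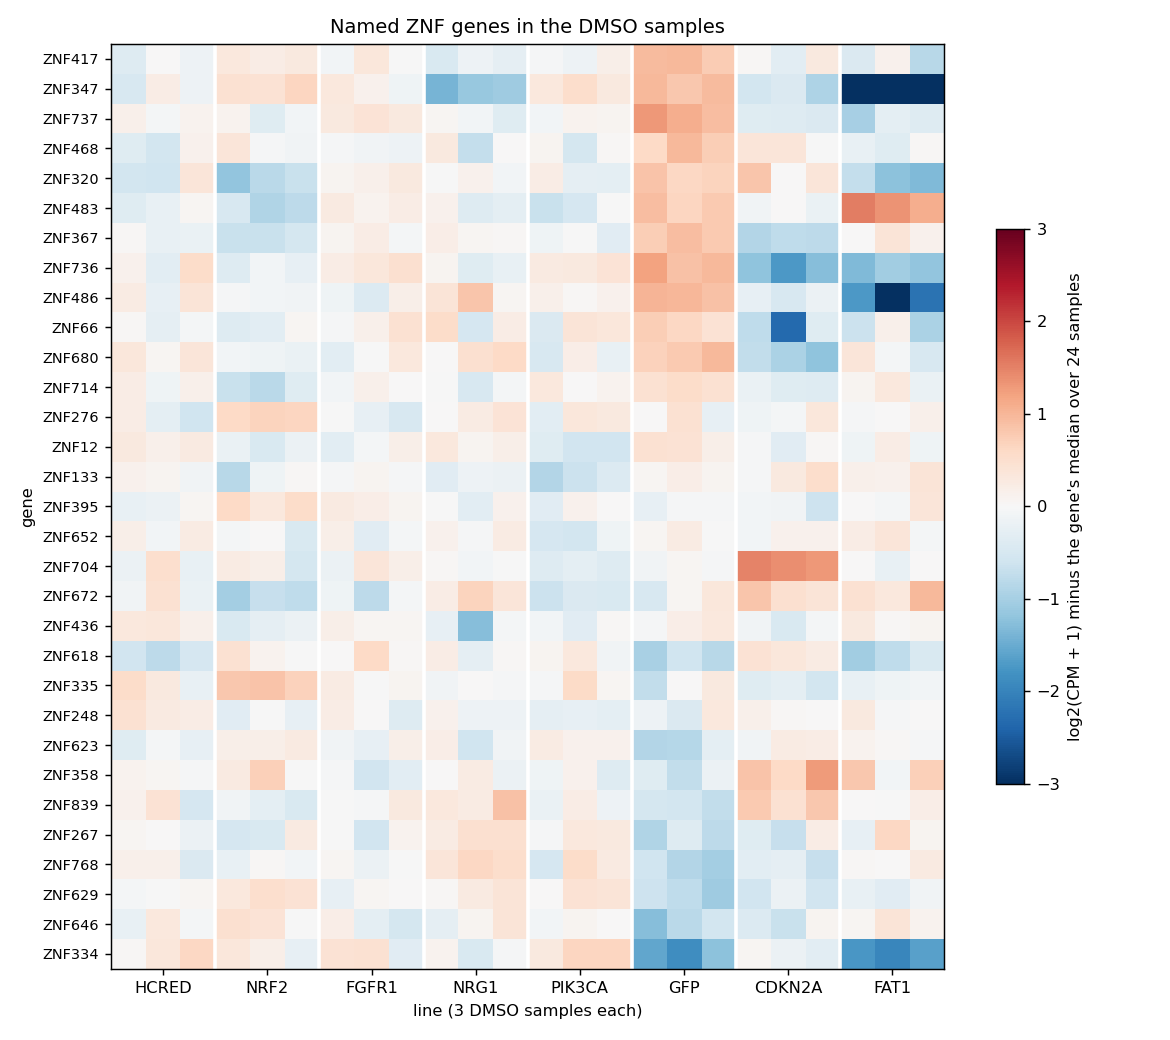
Colour gives log2(CPM + 1) minus the gene's median over the 24 DMSO samples, from -3 (dark blue, values below are shown as -3) to 3 (dark red), for ZNF347 and the named members of the genotype comparisons. Columns are the 3 DMSO samples of each line. ZNF347 is dark blue in FAT1 and paler blue in NRG1, ZNF704 is red in CDKN2A, and rows are ordered by GFP minus HCRED, so that GFP turns from red at the top to blue at the bottom.

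The chromosome 19 members were split into 8 clusters wherever the gap exceeded 2 Mb, a split made after the pattern was seen. The cluster at chr19:19779605-24312770 (hg19) holds 15 members, all with KRAB, of which 12 were lower in FAT1 and 15 in CDKN2A than in GFP, with medians of -0.95 and -1.10, and 10 were higher in GFP than in HCRED. The cluster at chr19:50528971-54083523, which holds ZNF347, had 14 of 18 lower in FAT1 (median -0.95) but 7 of 19 in CDKN2A (median -0.36). In the cluster at chr19:56117013-58788861 13 of 18 were lower in FAT1 and 7 of 18 in CDKN2A. The cluster at chr19:7069714-9785776 had medians of -0.02 and -0.17. Over all genes 14.3% were lower in FAT1 and 18.3% in CDKN2A than in GFP, and 8.76% were higher in GFP than in HCRED. ZNF486 and ZNF66 in the first of these clusters and ZNF548 in the third reach the count limit only with the GFP samples. They were kept in these counts, as was ZNF347 outside FAT1, so the counts are a description. Whether the knockouts differed from each other in these clusters was not tested.

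**Figure D4:**
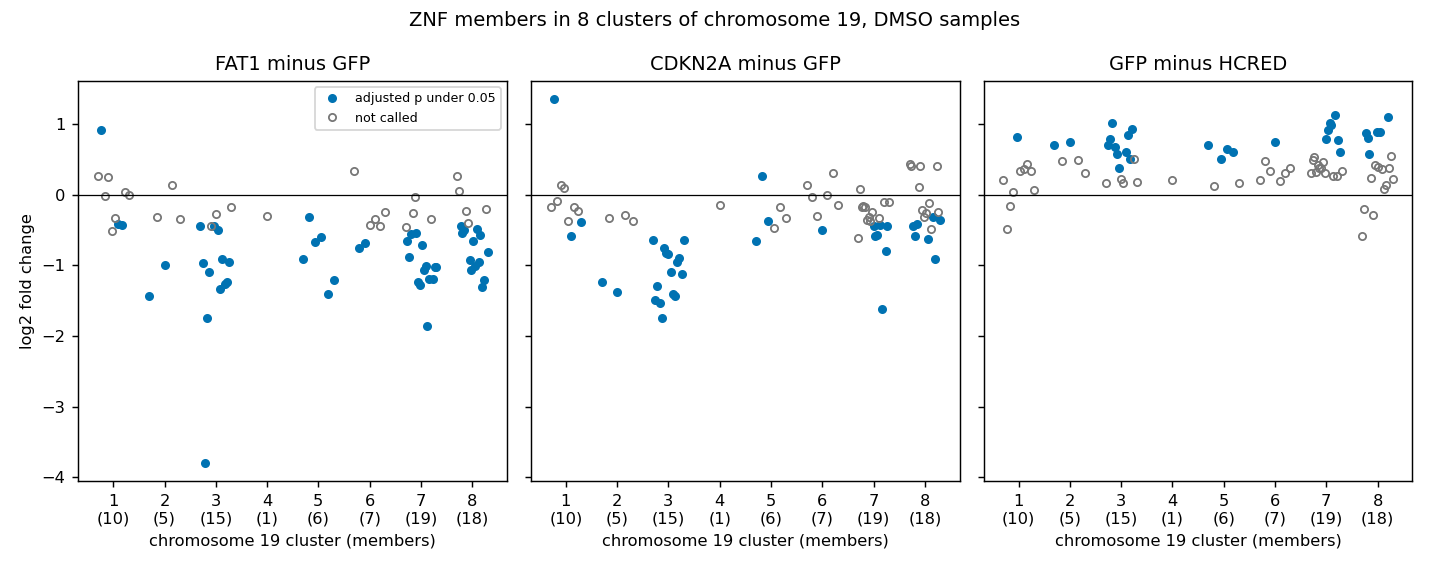
Log2 fold change of each chromosome 19 member with DMSO, by cluster in chromosomal order (number of members in brackets), with called members filled (adjusted p under 0.05). ZNF347 is left out of FAT1 minus GFP, and ZNF44, ZNF486, ZNF548 and ZNF66, which reach the count limit only with the GFP samples, are kept. The third cluster lies below 0 in both knockouts and above 0 in GFP minus HCRED.

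The overexpressing lines showed few changes against HCRED, which the 4 comparisons share. NRF2 had 4 members higher and 9 lower (6.77% called, background 7.16%, 3.26% higher and 3.9% lower), and PIK3CA 1 and 6 (3.65%, background 8.6%, 4.79% and 3.81%). FGFR1 had 1 and 0 (0.521%, background 1.86%, 1.09% and 0.774%) and NRG1 0 and 1 (0.521%, background 2.04%, 1.1% and 0.946%). The shares were at or below those of all genes, and the median members differed by -0.05 to 0.00. ZNF618 was the member called in FGFR1 (0.82 ± 0.23, adjusted p = 0.0458), and was also called in NRF2 (0.81 ± 0.23, 0.0206) and PIK3CA (0.72 ± 0.23, 0.0307). It read 20.2, 23.3 and 24.6 CPM in HCRED and 33.0 to 54.0 CPM in these 3 lines, and the same HCRED samples enter all 3 tests. Without any single HCRED sample it no longer passed in FGFR1 (adjusted p 0.102 to 0.194) or PIK3CA (0.0655 to 0.118), nor without FGFR1 replicate 2 (0.287), PIK3CA replicate 1 or 2 (0.0548 and 0.186), NRF2 replicate 1 (0.153) or, in NRF2, HCRED replicate 1 (0.0746). ZNF436 was the member called in NRG1 (-0.74 ± 0.20, adjusted p = 0.017), where 1 sample at 19.4 CPM stood below the others at 41.0 and 46.5, against 54.1 to 61.9 in HCRED. Without that sample (replicate 2) the difference was -0.43 (adjusted p = 0.398), and without HCRED replicate 1 it was -0.71 (0.0899). In PIK3CA, ZNF12 read 74.5, 74.8 and 87.0 CPM against 124, 134 and 136 in HCRED (-0.78 ± 0.12, adjusted p = 3.81e-06). In NRF2, ZNF714 read 60.0, 66.5 and 81.4 CPM against 96.5, 117 and 124 (-0.73 ± 0.15, adjusted p = 0.000276), and ZNF395 rose by 0.61 ± 0.15 (adjusted p = 0.00383), which did not pass without HCRED replicate 1 (0.54, adjusted p = 0.0522). The other members named by rule were ZNF276 (0.83 ± 0.26), ZNF335 (0.57 ± 0.17), ZNF672 (-0.85 ± 0.26), ZNF436 (-0.58 ± 0.19) and ZNF483 (-0.54 ± 0.17) in NRF2, and ZNF133 (-0.71 ± 0.22), ZNF248 (-0.62 ± 0.18) and ZNF652 (-0.56 ± 0.14) in PIK3CA. Each of these 8 calls was lost on leaving out some single sample. In NRF2, adjusted p reached 0.237 for ZNF276, 0.316 for ZNF335 and 0.242 for ZNF483 without HCRED replicate 3, and 0.182 for ZNF672 and 0.244 for ZNF436 without NRF2 replicate 1. In PIK3CA it reached 0.132 for ZNF133 and 0.122 for ZNF248 without HCRED replicate 1, and 0.0697 for ZNF652 without PIK3CA replicate 2.

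With the trend in GC content and exon length removed, the calls of the genotype comparisons were 15 higher and 56 lower in FAT1 (background 26.3%), 16 and 77 in CDKN2A (37.6%) and 43 and 8 in GFP against HCRED (18.8%). They were 3 and 4 in NRF2 (6.17%), 3 and 7 in PIK3CA (9.53%), 0 and 1 in NRG1 (2.34%) and 0 and 0 in FGFR1 (2.74%), where the uncorrected limma-voom and edgeR counts are 1 and 1. In carcinogen-treated samples, 118 members were called in CDKN2A (background 50.9%), 121 in GFP against HCRED (38.7%) and 111 in FAT1 (40.9%). There were 21 in NRF2 (15.6%), 8 in FGFR1 (9.48%), 8 in NRG1 (6.38%) and 31 in PIK3CA (22%). The largest of these in PIK3CA were ZNF672 (-0.97 ± 0.13, adjusted p = 2.07e-08) and ZNF697 (0.79 ± 0.17, 0.000202).

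Before a trend with GC content was removed, many members were lower with each carcinogen and a smaller group with GC-rich exons was higher. Of the 112 KRAB members 75 were lower with CSC, 54 with BaP and 69 with NNK, and of the 80 without KRAB 34, 36 and 36. After the correction described below these were 36, 18 and 22 of the KRAB members and 19, 12 and 15 of those without. CSC, BaP and NNK were each compared with DMSO over all genotypes, with genotype in the model, and share the DMSO samples. With CSC 26 members were higher and 109 lower (70.3% called, background 55.6%, 27.2% higher and 28.4% lower). With BaP they were 31 and 90 (63.0%, background 51.4%, 26.4% and 25.1%), and with NNK 29 and 105 (69.8%, background 51.7%, 25.9% and 25.8%). After the trend of each sample with GC content and exon length was removed, the calls were 11 and 55 with CSC (background 34.2%), 10 and 30 with BaP (25.1%) and 6 and 37 with NNK (17.3%), and the median member moved from -0.21 to -0.08, from -0.16 to -0.04 and from -0.19 to -0.05. As a share of the 192 members, the corrected calls were near the background with CSC, below it with BaP and above it with NNK. The size of the fold changes followed GC content, with a Spearman rho over the 192 members of 0.768 for CSC, 0.763 for BaP and 0.784 for NNK, and of 0.694 to 0.760 over all genes with a known GC content. These are correlations across genes that share libraries. With CSC, all 42 members with exons of at most 40% GC fell, and of 39 members above 50% GC 24 rose and 0 fell. After the correction 17 of the 42 fell and 1 rose, and 7 of the 39 rose and 5 fell. Whether the trend is a response of the cells or arose in the libraries was not tested.

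Among the falls, ZNF138 with CSC had 18.5, 29.5 and 61.9 CPM (lowest, median and highest of 24 samples) with DMSO and 10.3, 17.3 and 31.5 of 23 samples with CSC. It fell by 0.76 ± 0.09 (adjusted p = 2.04e-12), in 8 of 8 lines, and the difference was -0.46 after the GC correction (adjusted p = 7.93e-06). ZNF675 (-0.69 ± 0.10), ZNF737 (-0.67 ± 0.09) and ZNF302 (-0.67 ± 0.08) fell likewise with CSC, in 8 of 8 lines, and passed after the correction too. ZNF141 had the largest fall with BaP (-0.67 ± 0.06, adjusted p = 1.68e-17) and with NNK (-0.81 ± 0.07, adjusted p = 6.8e-19). Its median was 81.2 CPM with DMSO (63.5 to 117), 52.6 with BaP (35.3 to 72.9) and 46.1 with NNK (33.9 to 78.8), and the corrected differences were -0.44 and -0.58. With BaP, ZNF486 (-0.55 ± 0.11), ZNF678 (-0.52 ± 0.09) and ZNF91 (-0.51 ± 0.06) followed. ZNF91 is known for silencing SVA elements. With NNK, ZNF724 (-0.72 ± 0.10), ZNF594 (-0.69 ± 0.10) and ZNF397 (-0.64 ± 0.10) followed, and all of these falls passed after the correction.

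Among the rises, ZNF316 rose by 0.78 ± 0.05 with CSC (adjusted p = 1.84e-23), 0.75 ± 0.06 with BaP (2.28e-20) and 0.76 ± 0.05 with NNK (2.03e-22). Its median was 68.6 CPM with DMSO (47.1 to 92.3), 114 with CSC (83.3 to 204), 117 with BaP (60.2 to 188) and 114 with NNK (75.2 to 161). Its exons have 62.6% GC, and the corrected differences of 0.30, 0.26 and 0.25 still passed. ZNF358 (68.7% GC) rose by 0.85 ± 0.09, 0.77 ± 0.11 and 0.68 ± 0.10, and ZNF865 (70.9% GC) by 0.84 ± 0.09, 0.67 ± 0.10 and 0.74 ± 0.10, in all lines. After the correction neither passed with any carcinogen, and ZNF865 with BaP turned to -0.04 (adjusted p = 0.799). ZNF598, a ubiquitin ligase that senses collided ribosomes, rose by 0.75 ± 0.06 with CSC and 0.70 ± 0.06 with BaP, and ZNF787 by 0.72 ± 0.10 with NNK. Only the rise of ZNF598 with CSC passed after the correction (0.16, adjusted p = 0.0177).

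**Figure D5:**
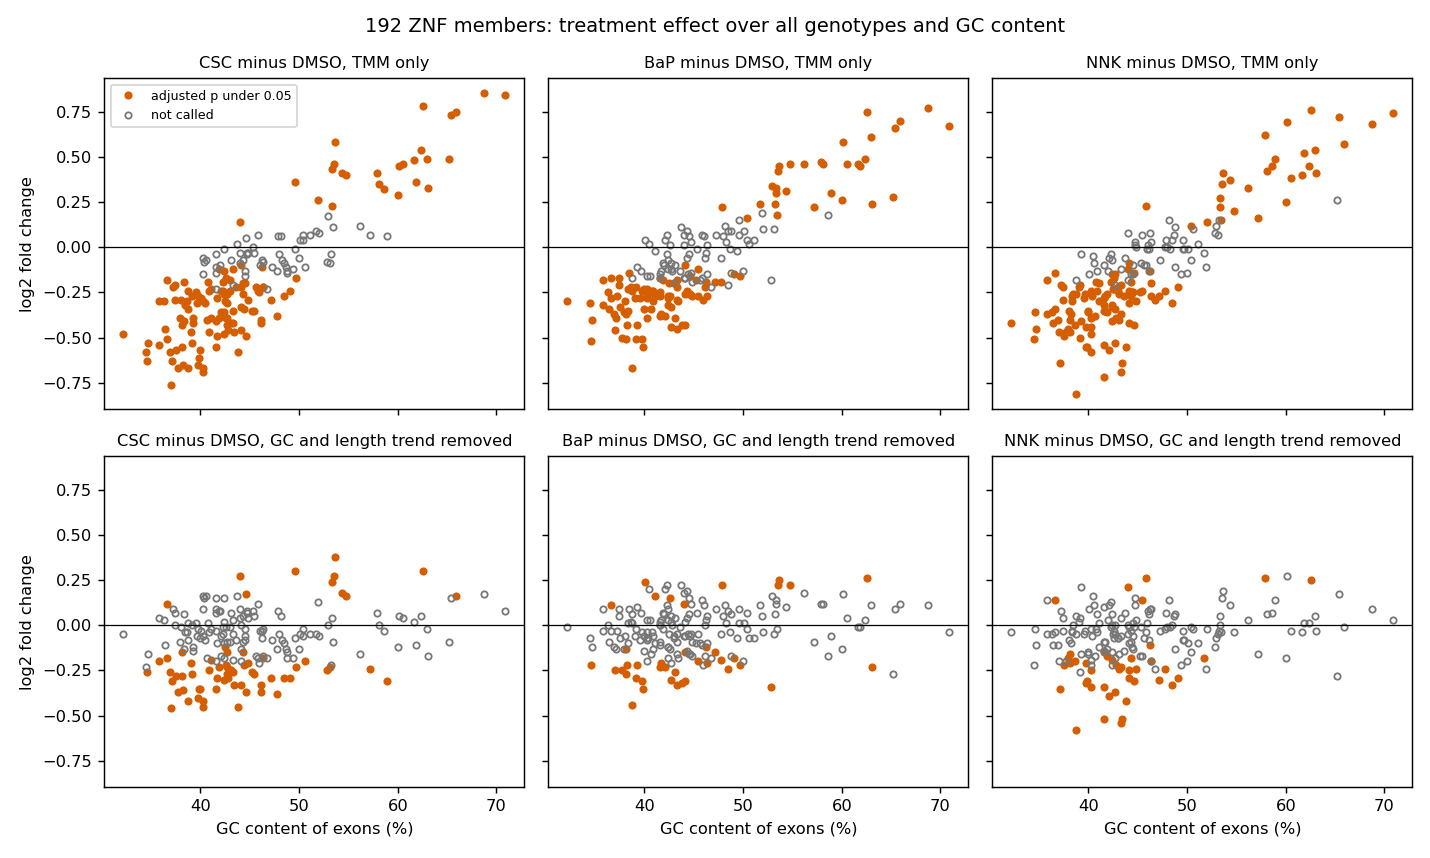
Log2 fold change of each of the 192 members with CSC, BaP or NNK against DMSO over all genotypes (vertical) against the GC content of its exons in percent (horizontal), before (top) and after (bottom) the trend with GC content and exon length was removed. Filled points passed an adjusted p of 0.05. Points rise with GC content in the top row, with ZNF358 and ZNF865 at the right and ZNF138 or ZNF141 lowest, and the slope is weaker in the bottom row.

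No member was called as responding differently between genotypes by limma-voom, for CSC, BaP or NNK (background 0.952%, 0.368% and 0.452%). At an unadjusted p under 0.05 there were 14, 7 and 20 members (7.29%, 3.65% and 10.4%, against 9.21%, 7.70% and 10.4% of all genes). edgeR's quasi-likelihood test called 1, 0 and 0, and the 1 was ZNF714 with CSC, with no share over all genes given for that test.

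The proteins through which KRAB-ZNF genes act were listed as TRIM28, SETDB1, ATF7IP, CBX1, CBX3, CBX5, CHD3, HDAC1, HDAC2, TASOR (FAM208A), MPHOSPH8, PPHLN1, MORC2, DNMT1, UHRF1, SUV39H1 and TRIM24, and all 17 were fitted in each comparison, while EHMT2 was listed without reads and not fitted. TRIM28, the KRAB corepressor, and SETDB1 did not pass in FAT1 (-0.01 ± 0.08 and 0.12 ± 0.15), in CDKN2A (0.03 ± 0.07 and 0.22 ± 0.14) or in GFP against HCRED (0.09 ± 0.08 and 0.02 ± 0.16). CBX5, the heterochromatin protein HP1 alpha, moved with the GFP line. Its level with DMSO was 247 to 305 CPM in GFP, and 620 to 1030 CPM in all samples of the other 7 lines, and it was lower in GFP than in HCRED (log2 difference -1.37 ± 0.08, adjusted p = 1.92e-27). Of the 17, 3 were higher and 1 lower in FAT1 (23.5% called, background 26.3%), 4 and 6 in CDKN2A (58.8%, background 37.2%), and 4 and 1 in GFP against HCRED (29.4%, background 17.7%). Lower in CDKN2A than in GFP were ATF7IP, CHD3, FAM208A, MPHOSPH8, DNMT1 and TRIM24, and MORC2 was higher in CDKN2A (1.10 ± 0.15) and in FAT1 (0.69 ± 0.16). Of those lower in CDKN2A, all but DNMT1 had means there below HCRED too. DNMT1 averaged 395 CPM in CDKN2A, 484 in GFP and 360 in HCRED. GFP was itself higher than HCRED for DNMT1 (0.44 ± 0.08), ATF7IP (0.38 ± 0.09) and MPHOSPH8 (0.35 ± 0.11). CDKN2A was not tested against HCRED. With CSC 1 was higher and 9 lower (58.8%, background 55.6%), with BaP 4 and 9 (76.5%, background 51.4%), and with NNK 5 and 9 (82.4%, background 51.7%). TRIM28 rose by 0.22 ± 0.03 with CSC, 0.35 ± 0.03 with BaP and 0.49 ± 0.03 with NNK, while CBX3, the HP1 gamma gene, fell by 0.46 ± 0.04 with CSC, by 0.49 ± 0.04 with BaP and by 0.53 ± 0.04 with NNK. The part of these levels in those of the members was not tested.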

How the data were processed

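SFL profiles of 95 AALE samples (8 genotypic perturbations, 4 treatments) were used. The authors trimmed reads with cutadapt 1.12, aligned them to hg19 with STAR 2.5.2b and used featureCounts on RefSeq genes, and deposited the raw counts without normalization, at 287446 to 2116383 counts per sample. Strand use in counting is not given in the sources used here. Counts were TMM-normalized in edgeR 4.0.16 and compared with limma 3.58.1 on voom-transformed values (R 4.3.3), on only the samples compared, for genes with a mean count above 1, with Benjamini-Hochberg adjustment over all genes fitted and a threshold of 0.05.  Alternatives were edgeR, DESeq2 1.42.0, other filters and scaling, the replicate block, removal of a loess trend (span 0.3) with GC content and exon length, carcinogen-treated samples, and leaving out samples. Tests were tested on simulated data. Positions, GC content and coding sequences are from GENCODE v44 on GRCh37, matched for 24309 symbols (86.9%). The members and lists were chosen with earlier results of these data known. Named are ZNF347, line-marking members, the 4 largest called rises and falls per comparison with DMSO samples and a mean of at least 20 counts, neighbours within 500 kb, the 5 genes most like ZNF347 and the partner list. Replicates differed by more than sampling noise (chi-square per degree of freedom 1.14 to 2.82 over 94 pairs).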

Additional observations from a re-analysis of the deposited data

Results flagged for a closer look

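ZNF714, a KRAB-ZNF gene of chromosome 19, responded differently to CSC between genotypes by edgeR's quasi-likelihood test of the interaction (adjusted p = 0.028) and not by limma-voom (adjusted p = 0.111). With DMSO and CSC it averaged 118 ± 13.3 and 62.1 ± 4.37 CPM in PIK3CA (n = 3 each) and 149 ± 5.90 and 94.7 ± 7.97 CPM in GFP, with no overlap. It averaged 69.3 ± 10.9 and 67.7 ± 2.44 CPM in NRF2 and 93.6 ± 16 and 89.7 ± 17.1 CPM in NRG1, where the samples overlapped.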

How the results depend on the processing

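Of 182 alternative counts, 142 stayed within 1.5 times the reported one. With the limits of 20% or 3 times, 2 members were near silent in 1 line. With those limits on all samples of a line, 2 were near silent and 1 (ZNF704) was high. At a mean count of at least 10 or 5, 3 or 6 were near silent. DESeq2 called 57 members in FAT1, 1 in NRF2, 0 in FGFR1, 0 in NRG1, 1 in PIK3CA and 22 in GFP against HCRED. For DESeq2 and edgeR no share over all genes is given, so their counts cannot be set against a background. NRF2 had 8 without a filter on low counts and 7 with the GC and length correction. FGFR1 had 2 at a mean count of at least 10, and 0 with the correction or with all 95 samples in one fit. The correction left 66 members with CSC, 40 with BaP and 43 with NNK, and reversed ZNF865 with BaP (-0.04). edgeR called 1 member in the CSC interaction. Carcinogen-treated samples in place of DMSO gave 21 in NRF2, 8 in FGFR1, 8 in NRG1, 31 in PIK3CA and 121 in GFP against HCRED, with 9 in place of 3 samples per line (8 for FGFR1). The causes were not tested. This choice, the limits on all samples, the mean count of 5 and leaving out the 5 members that reach 20 counts only with GFP were chosen after seeing the data.

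Leaving out single samples gave 70 to 87 members in FAT1, 83 to 95 in CDKN2A and 4 to 12 in NRF2. It gave 0 to 2 in FGFR1, 0 to 1 in NRG1, 2 to 9 in PIK3CA and 38 to 52 in GFP against HCRED. For the treatments and the line marks, all samples of 1 replicate number were left out at a time. That gave 115 to 124 members with CSC, 101 to 113 with BaP and 111 to 119 with NNK. With it 1 member was near silent, 0 were high and 0 were called in each interaction. NRF2 fell to 7 without HCRED replicate 1, 6 without HCRED replicate 3, 4 without NRF2 replicate 1 or 2 and 6 without NRF2 replicate 3. PIK3CA fell to 2 without HCRED replicate 1, 4 without PIK3CA replicate 1 and 3 without PIK3CA replicate 2. FGFR1 fell to 0 without FGFR1 replicate 2 or HCRED replicate 1 or 2 and had 2 without FGFR1 replicate 3, and NRG1 had 0 without HCRED replicate 1 or NRG1 replicate 2. In carcinogen-treated samples, the log2 difference of ZNF486 between FAT1 and GFP ranged from -3.15 to -2.71 without all samples of 1 replicate number.

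Deviations of same-numbered samples had correlations of -0.0498 to 0.0664 over genotype pairs. In the comparisons of carcinogens with DMSO single pairs ran from -0.141 to 0.177. No pairing by number was seen, but this cannot exclude a shared culture or plate, since counting noise also lowers such correlations. With the replicate block FGFR1 had 2 members called, and the other counts stayed within 1.5 times. Of 747 refits of 63 named values, 664 stayed on their side of the threshold, 82 no longer passed and 1 reversed. At 1.42 to 10.4 CPM for 3 counts, differences among the lowest genes were not detectable in the shallowest samples.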
